A study of Gallus gallus with 4 samples.

Results

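The genes described here encode the proteasome, its activators and the chaperones that assemble it, read from arrays of whole chicken ovaries and testes. They were chosen by name, as probe sets with a single platform symbol of the PSMA to PSMG families or POMP, ADRM1, UCHL5 or PAAF1, without PSMC3IP, which is named for its binding to PSMC3 and acts in meiotic recombination. The rule gave 64 probe sets for 40 genes, of 13009 genes with a single symbol in the whole series. The ovary group was 2 pools of ovaries and the testis group 2 pools of testes, each pool made from 4 animals of 17 weeks. All 16 birds, 8 females and 8 males, came from inbred congenic CB lines of White Leghorn origin. Each pool was read on 1 Affymetrix Chicken Genome Array. A probe set on it is a group of short probes read together as 1 value, and some probe sets are shared between transcripts. The labels name no treatment, and pooling hides differences between birds. The deposited values are log2 expression values, and a difference below is log2 ovary minus testis, so that positive values are higher in ovary.

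The proteasome is the protease that degrades proteins marked with ubiquitin. Its core particle is a barrel of alpha and beta rings, with the active sites inside the beta rings and a gate formed by the alpha rings. The regulatory particle caps the barrel: its base holds ATPases that unfold the substrate and thread it through the gate, and its lid removes the ubiquitin chain. Other caps can open the gate in place of the regulatory particle, and dedicated chaperones build the rings and the base. In mammals, germ cells of the testis carry special forms of the proteasome, with the alpha subunit PSMA8 and the activator PSME4.

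The ovary pools had a correlation of 0.991 with each other over the tested probe sets, and the testis pools one of 0.995. On each array 55.1% to 55.7% of them exceeded a background level of log2 3.32. The organ labels were borne out by markers: all 5 measured oocyte genes and all 4 granulosa cell genes were higher in ovary. All 3 Sertoli cell, 6 spermatid and 3 meiotic genes were higher in testis (limma, adjusted p under 0.05). No spermatid gene was above background in either ovary pool. Of 3 theca and steroid genes, 2 were higher in ovary, with summed signals of log2 14.11 and 13.93 in ovary and 12.04 and 11.44 in testis. The summed signal of the 6 spermatid genes was log2 5.09 and 5.01 in the ovary pools and 15.78 in each testis pool. Of the 5 oocyte genes, the summed signal was 14.52 and 14.56 in ovary and 5.60 and 5.49 in testis. Leukocyte genes were split, with 2 of 6 higher in ovary and 2 in testis, and their summed signal was 13.53 and 13.35 in ovary and 12.72 and 12.44 in testis. None of the 4 smooth muscle genes passed, with summed signals of 10.85 and 10.20 in ovary and 11.49 and 11.27 in testis. The single measured erythrocyte gene, HBAD, was higher in ovary (10.87 and 9.67 in ovary, 6.09 and 6.15 in testis). The part of these cell populations in the differences below was not tested, and in whole organs fewer cells of a type cannot be told apart from less RNA per cell.

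Proteasome genes differed between the organs in both directions, at shares close to those of all genes above background in every pool, a set not matched for signal level, and by smaller amounts. The brightest probe set of each gene was above background in all 4 pools for all 40 genes. This includes PSMB5, whose flat values (6.94 to 6.95 in all pools) do not show that the gene was detected. Ovary was higher for 15 of the 40 genes, testis for 13, and 12, PSMB5 among them, did not pass (limma, Benjamini-Hochberg adjusted p under 0.05 over 38382 probe sets). These are 37.5% and 32.5% of the members. Among the 9100 genes above background in all 4 pools, 35.3% were higher in ovary and 28.6% in testis, 63.9% in either direction against 70% of the members. The shares were 28.7% and 24.3% over all genes, and 18.2% and 17.4% over all probe sets. The median difference was 0.05 over the members, 0.11 over genes above background in all pools and 0.01 over all genes. The median size of the difference, whatever its sign, was 0.64 for the members and 1.02 for genes above background in all pools. A called difference of at least 2-fold was found for 9 members, which is 22.5%, 4 toward ovary and 5 toward testis, against 46.5% (25.9% ovary, 20.6% testis) of the genes above background in all pools. The pool values of the organs did not overlap for 35 of 40 members, against 88.9% of those genes. The gap between pools of the same organ had a median over members of 0.09 in ovary and 0.10 in testis, and was widest for PSMA4 in ovary (0.38) and PSMG4 in testis (0.54).

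**Figure D1:**
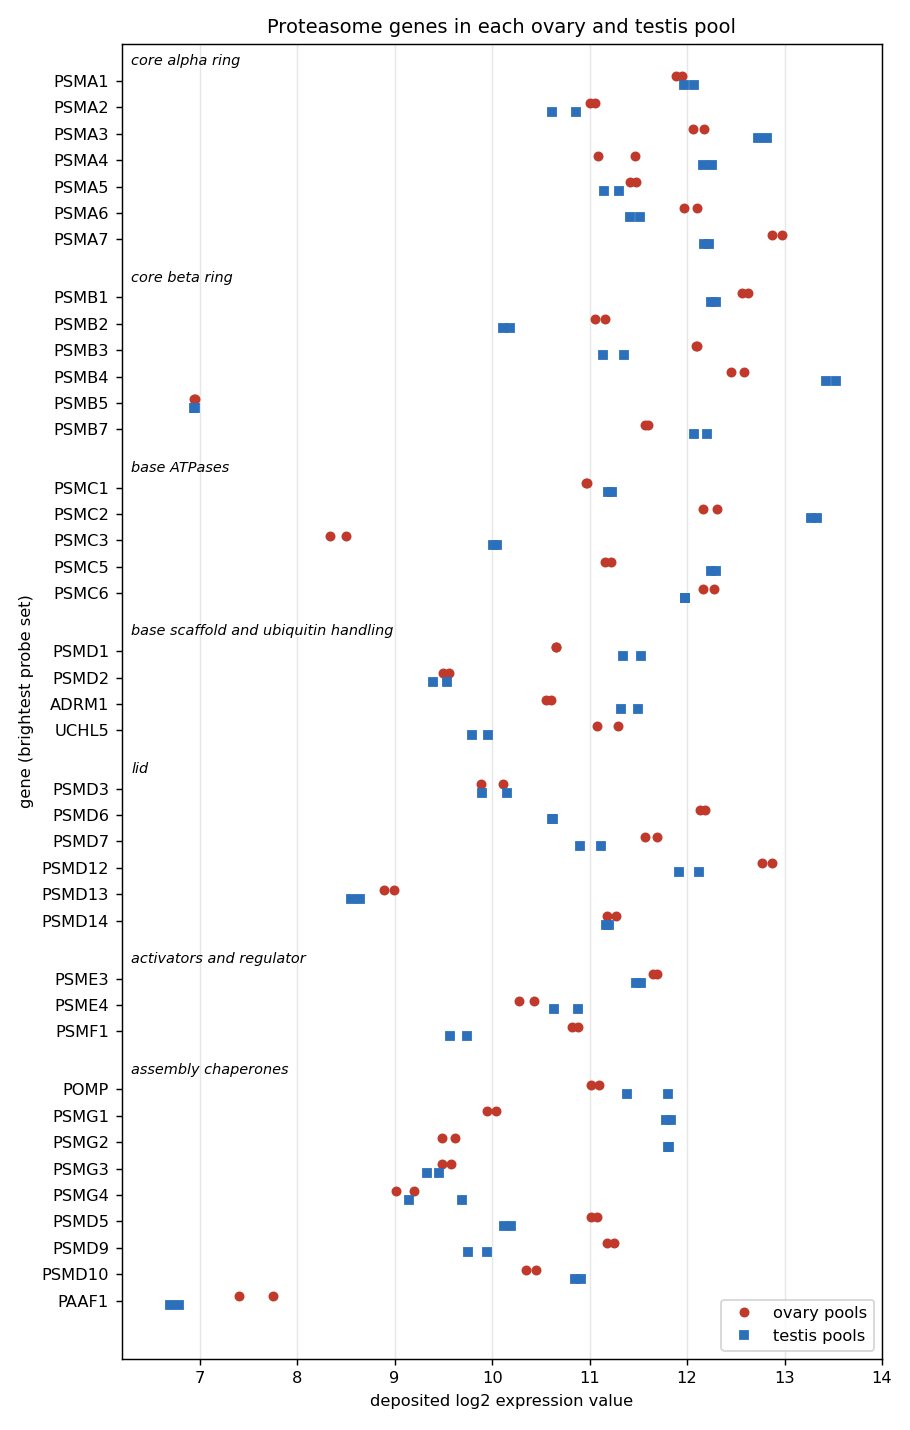
Deposited log2 values of the 40 proteasome genes (brightest probe set of each) in the 2 ovary pools (circles) and the 2 testis pools (squares), by role. Levels of different genes come from different probes and cannot be compared; within a gene, PSMG2 and PSMG1 show the testis pools farthest to the right of the ovary pools, and PSMD6 the reverse.

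The counts in each direction varied between parts of the complex. Of 5 measured base ATPases, 4 were higher in testis, while the lid had 4 of 6 genes called toward ovary and 0 toward testis, or 4 and 1 of 7 with SEM1, a lid subunit outside the naming rule. The core rings were mixed, with 5 of 13 higher in ovary and 4 in testis. Among brightest probe sets, the chaperones PSMG2 (-2.26) and PSMG1 (-1.82) held the 2 farthest differences toward testis, while dimmer probe sets of PSME4 lay farther. Dimmer probe sets of PSMG4 (-1.92) and PSME3 (-1.90) also lay farther than PSMG1. Among genes above background in all 4 pools, 35.3% were called toward ovary and 28.6% toward testis, and each role holds few genes. No test compared the roles with each other. A fit without a pool leaves 1 pool in that organ, assumed to vary like those of the other organ, and calls fewer genes over the whole array. With a pool left out, 7 of the 28 called members stayed called in all 4 such fits: PSMC5, PSMD6, PSMF1, PSMG1, PSMG2, PSMD5 and PSMD9. Without testis pool 1 or testis pool 2 the counts were 5 ovary-higher and 7 testis-higher members, without ovary pool 1 they were 8 and 8, and without ovary pool 2 they were 9 and 9. Fits without a pool called 2 or 3 ATPases toward testis and 1 lid gene toward ovary. Probe sets with name endings _x_at and _s_at are named by the array maker as open to cross-hybridisation or shared between transcripts. With these left out, 9 members were called toward ovary and 13 toward testis, with 2 ATPases toward testis and 1 lid gene in each direction. PSMA3, PSMC2, PSMC6, PSMD3, PSMD12, PSMF1 and PSMD9 have only such probe sets, so they were not measured in that setting. PSMA2, PSMB5, PSMC3, PSMD7, PSMD13 and PSME3 were then read by probe sets near or below background. Through such probe sets PSMB5 and PSMD7 were counted toward testis. The lower counts thus do not show what cross-hybridisation adds to the calls.

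**Figure D2:**
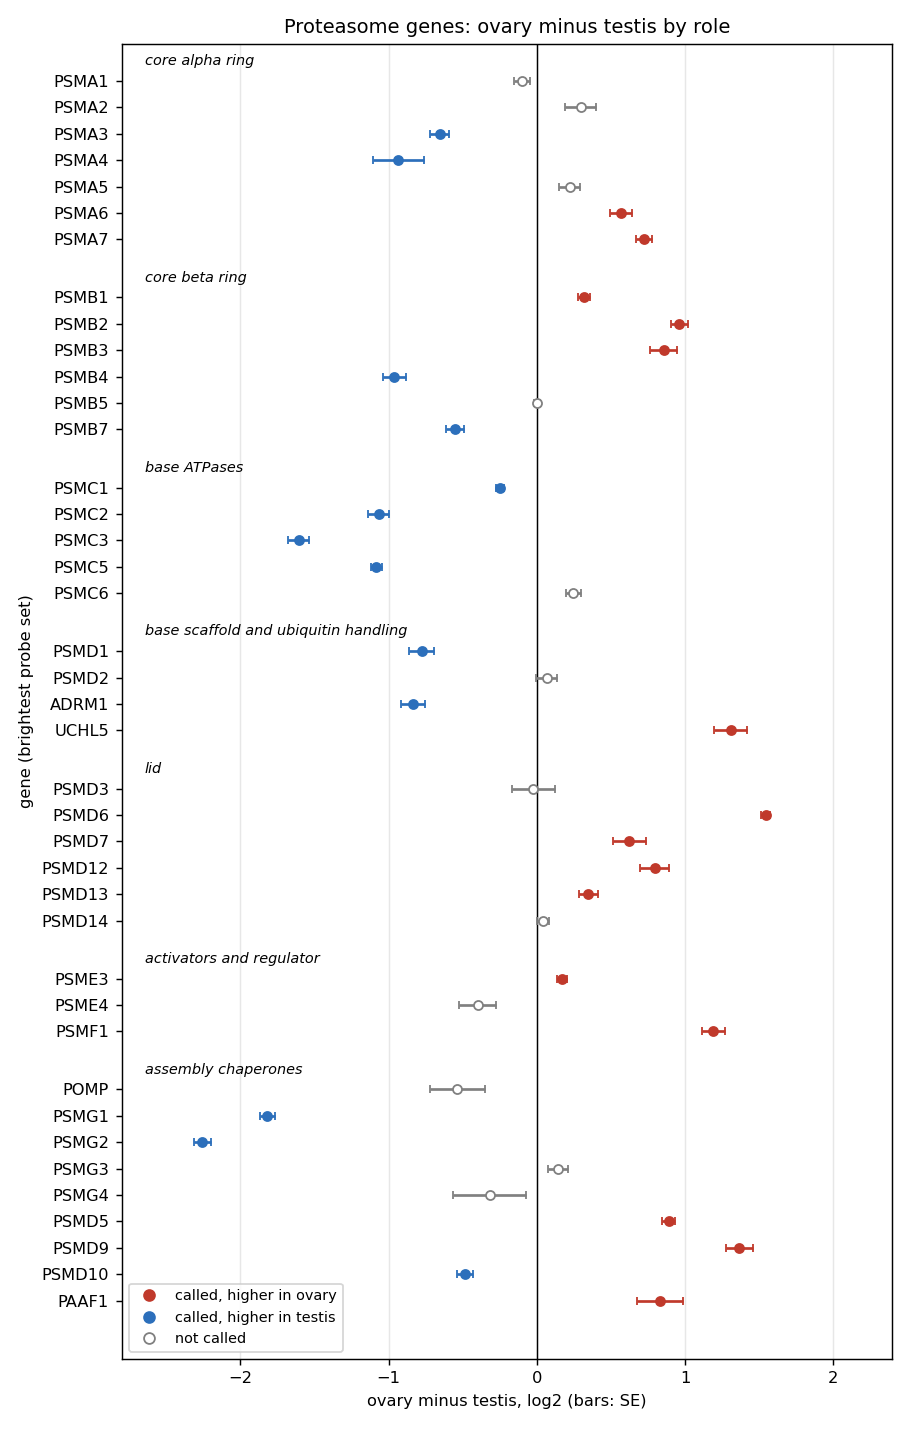
Difference in log2 value, ovary minus testis, of each proteasome gene (brightest probe set; bars are the SE of the limma fit, 2 pools per organ), by role. Filled points passed an adjusted p of 0.05; base ATPases lie mostly left of 0 (higher in testis) and lid genes at or right of 0 (higher in ovary).

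The alpha ring had 2 genes called toward ovary and 2 toward testis, and 3 that did not pass. The shares among genes above background in all pools were 35.3% toward ovary and 28.6% toward testis. PSMA7, an alpha subunit, had values of 12.87 and 12.97 in the ovary pools, against 12.22 and 12.17 in the testis pools, a difference of 0.72 (SE 0.054, limma adjusted p = 0.00756). PSMA6, which stood at 12.10 and 11.97 in ovary and 11.41 and 11.52 in testis, differed by 0.57 (SE 0.077, adjusted p = 0.0236). These are 1.65-fold and 1.48-fold, and the ovary pools lay above the testis pools for both genes. PSMA4 went the other way, with 11.47 and 11.08 in ovary and 12.26 and 12.16 in testis (difference -0.93, SE 0.17, adjusted p = 0.0438). PSMA3 had 12.06 and 12.18 in ovary, against 12.82 and 12.73 in testis (-0.66, SE 0.066, adjusted p = 0.0133). PSMA1, PSMA2 and PSMA5 had differences of -0.10, 0.30 and 0.22 (adjusted p = 0.321, 0.172 and 0.136). Their pools did not overlap either, as for 88.9% of genes above background in all pools. PSMA8, the germ cell paralog of PSMA7 in mammals, has no probe set under that symbol and was not analysed here. Without testis pool 1 or testis pool 2, adjusted p was 0.109 and 0.095 for PSMA3, 0.255 and 0.2 for PSMA4, 0.149 and 0.119 for PSMA6 and 0.0801 and 0.0862 for PSMA7, and for PSMA6 it was 0.0675 without ovary pool 1. PSMA4 also lost its call under robust moderation (0.0515), quantile normalization (0.0661) and a floor at the background level (0.0786). The floor left its difference at -0.93.

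The beta ring had 3 genes called toward ovary, 2 toward testis and 1, PSMB5, that did not pass and was not measured well. Calls were common among genes above background in all pools (35.3% toward ovary, 28.6% toward testis). PSMB2, a structural beta subunit, had 11.06 and 11.16 in ovary, against 10.11 and 10.18 in testis, a difference of 0.96 (SE 0.056, limma adjusted p = 0.00487). PSMB3, another structural subunit, stood at 12.10 in both ovary pools and at 11.35 and 11.14 in testis (0.86, SE 0.092, adjusted p = 0.0148). PSMB1 differed by 0.32 (adjusted p = 0.0198). PSMB4, whose product is also structural, had 12.58 and 12.45 in ovary and 13.53 and 13.42 in testis, a difference of -0.96 (SE 0.077, adjusted p = 0.0085). The differences of PSMB2 and PSMB4 were thus of the same size (1.95-fold each) and of opposite direction, and both genes encode subunits of the same ring. PSMB7, which carries the trypsin-like active site, had 11.60 and 11.57 in ovary, against 12.07 and 12.21 in testis (-0.55, SE 0.063, adjusted p = 0.0167). Its other probe set had 7.46 and 7.93 in ovary and 8.22 and 7.95 in testis and did not pass (-0.39, adjusted p = 0.382).

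PSMB5, which carries the chymotrypsin-like site, was not measured well. Its brighter probe set, of a type that the array maker names as open to cross-hybridisation, read between 6.94 and 6.95 in all 4 pools (adjusted p = 0.999). Its difference, near 0, has no settled sign, and values above the background level do not by themselves show that PSMB5 was detected. The dimmer one was at 2.97 and 2.96 in ovary, not above background, and at 3.73 and 3.47 in testis. It was called higher in testis (-0.64, adjusted p = 0.0416), at least 1.21-fold. Leaving out ovary pool 1 or ovary pool 2 ended that call (adjusted p = 0.138 and 0.143), as did a floor at the background level (-0.28, adjusted p = 0.297) and quantile normalization (0.0587). PSMB6, the caspase-like subunit, was not analysed here, nor were the immune subunits PSMB8 to PSMB10 or the thymic PSMB11 of mammals. Leaving out ovary pool 1 or ovary pool 2 ended the calls of PSMB3 (adjusted p = 0.0667 and 0.0683) and PSMB7 (0.0726 and 0.0791). Leaving out testis pool 1 or testis pool 2 ended those of PSMB2 (0.0624 and 0.0595) and PSMB4 (0.0838 and 0.0762). PSMB1 lost its call with any pool left out (0.0683 to 0.11) and with dim probe sets filtered out (0.0565), and PSMB7 with the mean of its probe sets (0.0535).

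The ATPases of the base form a hexamer that unfolds substrates, and most of them were higher in testis. PSMC3 had 8.34 and 8.50 in ovary, against 10.01 and 10.05 in testis, a 3.05-fold difference (-1.61, SE 0.073, limma adjusted p = 0.00334). PSMC5 had 11.22 and 11.16 in ovary and 12.24 and 12.30 in testis (-1.08, SE 0.039, adjusted p = 0.0024). PSMC2 had 12.31 and 12.16 in ovary, against 13.34 and 13.27 in testis (-1.07, SE 0.072, adjusted p = 0.00633). In each of these genes both testis pools lay above both ovary pools by more than the gap between pools of either organ. Pools of the organs also did not overlap for 88.9% of genes above background in all pools, and 28.6% of those genes were called toward testis. PSMC1 was called with a small difference (-0.25, SE 0.027, adjusted p = 0.0156). PSMC6 pointed to ovary and did not pass, with 12.17 and 12.28 in ovary and 11.98 in both testis pools (0.25, adjusted p = 0.0573), but was called higher in ovary after quantile normalization (0.31, adjusted p = 0.0327). The median of the 5 genes was -1.07. PSMC4, the sixth ATPase, was not analysed here. The second probe set of PSMC3 was near background, with 3.52 and 3.23 in ovary and 3.61 and 4.27 in testis, and did not pass (-0.56, adjusted p = 0.339). It stands for the gene when probe sets named _x_at or _s_at are left out, which ended the call of PSMC3 (adjusted p = 0.367). Without testis pool 1 or testis pool 2, adjusted p was 0.0578 and 0.0599 for PSMC3 and 0.0806 and 0.0769 for PSMC2. For PSMC1 it was 0.0934 without ovary pool 1, 0.102 without ovary pool 2, 0.231 with median-centred arrays and 0.0996 with dim probe sets filtered out.

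The base also holds 2 large scaffold subunits and the ubiquitin handling proteins, and these were split. PSMD1, a scaffold, had 10.66 and 10.65 in ovary and 11.53 and 11.34 in testis (-0.78, SE 0.083, limma adjusted p = 0.0147). PSMD2, the other scaffold and a ubiquitin-binding subunit, had 9.56 and 9.50 in ovary, against 9.53 and 9.39 in testis, so that the organs overlapped (0.07, adjusted p = 0.597), and the sign turned with the mean of its probe sets (-0.20). ADRM1 is the ubiquitin receptor that docks the deubiquitinase UCHL5 on the base. ADRM1 had 10.60 and 10.55 in ovary, against 11.50 and 11.32 in testis, and was 1.78-fold higher in testis (-0.84, SE 0.081, adjusted p = 0.0121). UCHL5 went the other way, with 11.08 and 11.29 in ovary and 9.80 and 9.96 in testis, 2.48-fold higher in ovary (1.31, SE 0.11, adjusted p = 0.00993). Its second probe set gave 10.33 and 10.36 in ovary and 8.64 and 9.24 in testis (1.40, adjusted p = 0.0429), a call that ended under robust moderation (0.0506), quantile normalization (0.0522) and a floor at the background level (0.0778). Both probe sets share the target number in their names. The receptor and the enzyme it binds thus differed in opposite directions. Pools did not overlap for either, as for 88.9% of genes above background in all pools. Leaving out ovary pool 1 or ovary pool 2 ended the calls of PSMD1 (adjusted p = 0.0671 and 0.0686), ADRM1 (0.0538 and 0.0594) and the dimmer UCHL5 probe set (0.138 and 0.143). Leaving out testis pool 1 or testis pool 2 ended that of the brighter UCHL5 probe set (0.0949 and 0.0847).

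The 6 lid genes chosen by name were higher in ovary or did not pass, and SEM1, a small lid subunit whose symbol lies outside the naming rule, was higher in testis. The lid is a small set, and of genes above background in all pools 35.3% were called toward ovary and 28.6% toward testis. PSMD6, a structural lid subunit, showed the farthest difference toward ovary of all members, with 12.14 and 12.19 in ovary, against 10.61 and 10.63 in testis, 2.92-fold (1.54, SE 0.029, limma adjusted p = 0.00105). PSMD12, also structural, had 12.76 and 12.87 in ovary and 12.12 and 11.92 in testis (0.79, SE 0.099, adjusted p = 0.0198). PSMD7, the partner of the lid deubiquitinase, had 11.70 and 11.57 in ovary and 11.11 and 10.90 in testis (0.63, SE 0.11, adjusted p = 0.0402). PSMD13 differed by 0.35 (SE 0.063, adjusted p = 0.043). The deubiquitinase itself, PSMD14, which cuts the ubiquitin chain from the substrate, stood at 11.18 and 11.27 in ovary and 11.20 and 11.17 in testis (0.04, SE 0.042, adjusted p = 0.578). PSMD3 overlapped too, with 10.11 and 9.89 in ovary and 10.15 and 9.89 in testis (-0.02, SE 0.15, adjusted p = 0.951), a sign that turned with median-centred arrays (0.05). SEM1 had 5.66 and 5.30 in ovary, against 6.95 and 7.63 in testis (-1.81, SE 0.33, adjusted p = 0.0435). Both of its probe sets were called toward testis, and its difference was larger than that of any lid gene toward ovary. Its call ended with any pool left out (0.0909 to 0.139), under robust moderation (0.0512) and with a floor at the background level (0.0787). The median was 0.49 over the 6 genes and 0.35 with SEM1, and PSMD8 and PSMD11 were not analysed here.

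With any single pool left out, PSMD7, PSMD12 and PSMD13 lost their calls (limma adjusted p = 0.0968 to 0.138, 0.0652 to 0.0835 and 0.0841 to 0.198). Their differences stayed within 0.52 to 0.73, 0.69 to 0.90 and 0.30 to 0.40. PSMD7 was also 1 of 2 members with probe sets called in opposite directions. Its second probe set lay near background, at 3.24 and 3.33 in ovary and 3.52 and 3.55 in testis (-0.25, adjusted p = 0.0382), and lost its call with any pool left out (0.0648 to 0.19) and with median-centred arrays (0.296). The brighter PSMD7 probe set lost its call with a floor at the background level (0.0721) and with the mean of both probe sets (0.0699). For PSMD13, whose other 3 probe sets were not above background in any pool, the call ended under all alternatives to the fit or the choice of probe set other than median centring (0.0508 to 0.528).

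The activators gave the widest disagreement between probe sets of 1 gene. PSME4 encodes a large activator cap that in mice is needed for male fertility and acts on acetylated histones in spermatids. Its brightest probe set had 10.28 and 10.43 in ovary, against 10.88 and 10.63 in testis, and did not pass (-0.40, SE 0.13, limma adjusted p = 0.132). The second probe set had 7.90 and 8.18 in ovary, against 11.70 and 11.63 in testis, 12.3-fold (-3.62, SE 0.12, adjusted p = 0.00223). The third had 7.95 and 7.99 in ovary, against 11.34 and 11.25 in testis (-3.33, SE 0.044, adjusted p = 0.000698). Both kept their calls with each pool left out in turn (adjusted p at most 0.047 and 0.0153). These last probe sets share the target number in their names, and the brightest has another, so they are not independent of each other. The second is of the kind shared between transcripts, and the third is not. With the mean of its 3 probe sets PSME4 was called higher in testis (-2.45, adjusted p = 0.00196). No source used here gives the transcript of PSME4 that each probe set reads.

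PSME3 encodes an activator of the nucleus, and its probe sets were called in opposite directions. The brightest had 11.70 and 11.65 in ovary and 11.48 and 11.53 in testis (0.17, SE 0.033, limma adjusted p = 0.0487). The next had 10.64 and 10.06 in ovary, against 12.31 and 12.19 in testis, 3.74-fold toward testis (-1.90, SE 0.26, adjusted p = 0.0233). Both are of the kind shared between transcripts. The ovary-higher call was small and ended with any pool left out (0.129 to 0.207), with dim probe sets filtered out (0.21), with a variance trend (0.0983), under robust moderation (0.0538), with median-centred arrays (0.107) and with a floor at the background level (0.0633). The testis-higher one was lost when testis pool 1 or testis pool 2 was left out (0.182 and 0.161), and with the mean of the probe sets PSME3 was higher in testis (-0.61, adjusted p = 0.0302). PSMF1, a regulator first described as a proteasome inhibitor, had 10.88 and 10.81 in ovary, against 9.57 and 9.74 in testis, 2.28-fold (1.19, SE 0.078, adjusted p = 0.00604). With the brightest probe set of each gene, 2 of the 3 activator and regulator genes had ovary higher and 0 had testis higher. With the mean of all probe sets the counts were 1 and 2. By brightest probe set, 35.3% of genes above background in all pools were higher in ovary and 28.6% in testis. PSME1 and PSME2 were not analysed here.

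**Figure D3:**
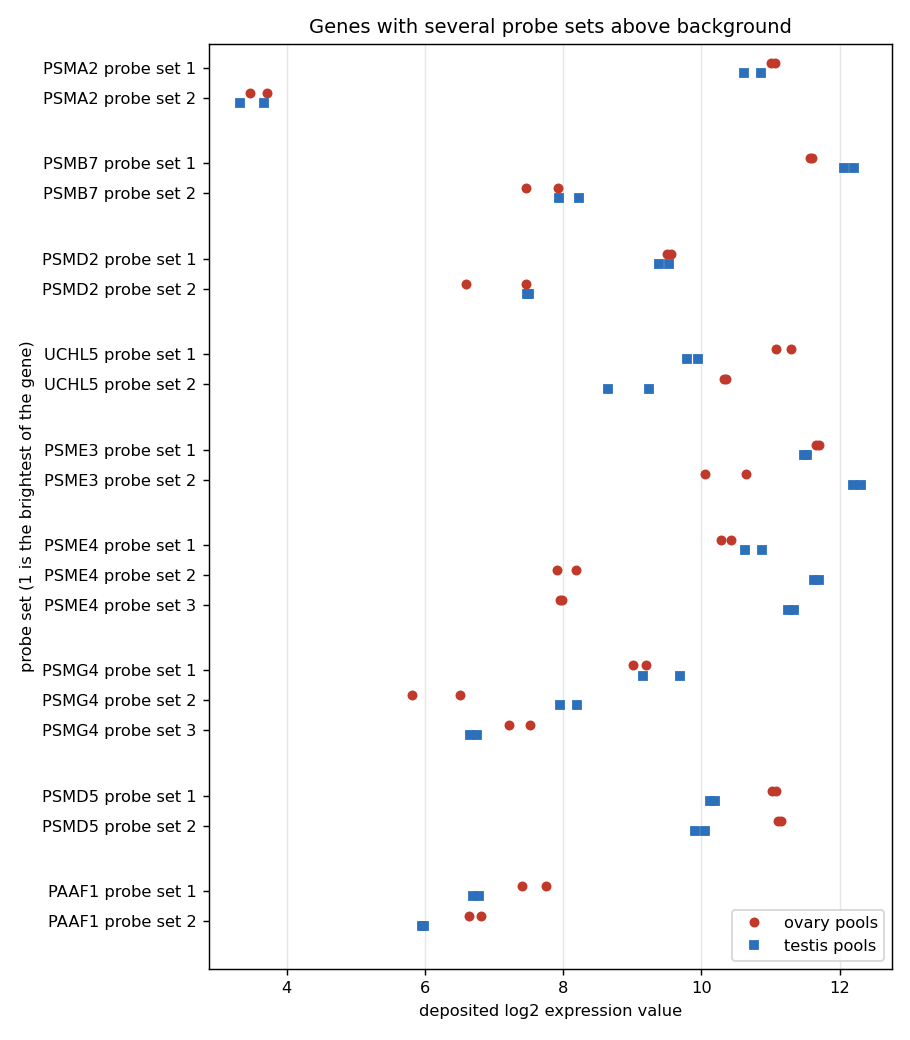
Deposited log2 values in the 2 ovary pools (circles) and 2 testis pools (squares) for the 9 proteasome genes with at least 2 probe sets above background in all pools, numbered from the brightest. For PSME4 the testis pools lie 3 or more log2 units above the ovary pools in probe sets 2 and 3 and close to them in probe set 1, while the probe sets of UCHL5, PSMD5 and PAAF1 shift alike.

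Of 5 chaperones of the core particle, 2 were higher in testis and 3 did not pass, while of 4 chaperones of the base 3 were higher in ovary and 1 in testis. These sets are small, and among genes above background in all pools 28.6% were higher in testis and 35.3% in ovary. PSMG1 and PSMG2 form the dimer on which the alpha ring is built. PSMG2 had 9.62 and 9.49 in ovary, against 11.82 and 11.80 in testis, 4.78-fold (-2.26, SE 0.059, limma adjusted p = 0.00157). PSMG1 had 9.95 and 10.04 in ovary, against 11.83 and 11.79 in testis, 3.52-fold (-1.82, SE 0.048, adjusted p = 0.00161). These were the farthest differences toward testis among the 40 brightest probe sets; with the mean of all probe sets PSME4 (-2.45) lay farther. PSMG3 and PSMG4 form the next dimer. PSMG3 had 9.49 and 9.58 in ovary and 9.45 and 9.33 in testis (0.14, adjusted p = 0.282), a sign that turned with the mean of its probe sets (-0.33). Its dimmer probe set was above background only in testis pool 2. POMP, which drives the beta ring and the joining of half-barrels, had 11.01 and 11.10 in ovary and 11.38 and 11.80 in testis (-0.54, SE 0.19, adjusted p = 0.159). Its pools did not overlap, as for 88.9% of genes above background in all pools, but the testis pools differed from each other by 0.42.

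PSMG4 was read by 3 probe sets that did not give 1 answer. The brightest had 9.01 and 9.20 in ovary, overlapping with 9.15 and 9.70 in testis (-0.32, limma adjusted p = 0.485). The second had 5.81 and 6.51 in ovary, against 8.20 and 7.95 in testis (-1.92, adjusted p = 0.0356). The third had 7.52 and 7.21 in ovary, against 6.66 and 6.76 in testis, and did not pass (0.66, adjusted p = 0.0604). Leaving out testis pool 1 or testis pool 2 ended the call of the second (adjusted p = 0.226 and 0.178). PSMG4 was called toward testis with the mean of its probe sets (-0.53, adjusted p = 0.0435).

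In yeast and mammals, each base chaperone binds a different ATPase of the ring. PSMD9, the chaperone of PSMC3, had 11.25 and 11.18 in ovary, against 9.95 and 9.75 in testis, 2.58-fold toward ovary (1.37, SE 0.091, limma adjusted p = 0.00619). PSMD5, which binds PSMC2, had 11.02 and 11.07 in ovary and 10.12 and 10.19 in testis (0.89, SE 0.043, adjusted p = 0.00359), and its second probe set gave 1.15 (adjusted p = 0.00493). PAAF1, which binds PSMC5, had 7.75 and 7.40 in ovary, against 6.79 and 6.70 in testis (0.83, SE 0.16, adjusted p = 0.0464), and its second probe set gave 0.76 (adjusted p = 0.0135). The chaperones of PSMC3, PSMC2 and PSMC5 were thus higher in ovary, while the ATPases themselves were higher in testis (-1.61, -1.07 and -1.08). Each direction was common among genes above background in all pools (35.3% ovary, 28.6% testis). The limits given above for the calls of PSMC3 and PSMC2 apply here too. PSMD10, the chaperone of PSMC4, was higher in testis, with 10.35 and 10.45 in ovary and 10.85 and 10.91 in testis (-0.48, SE 0.055, adjusted p = 0.0165). PSMC4 was not analysed here, so this pair could not be compared. Without testis pool 1 or testis pool 2, adjusted p was 0.234 and 0.226 for PAAF1, 0.131 and 0.123 for its second probe set, and 0.115 and 0.128 for PSMD10, which was at 0.0501 without ovary pool 1. The brighter PAAF1 probe set also lost its call under robust moderation (0.0545) and a floor at the background level (0.0824).

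Other genes of the pathway were described from a list of 45 partners, of which 36 were measured. Ovary was higher for 13 and testis for 14, while 9 did not pass; these are 36.1% and 38.9%, beside 35.3% and 28.6% of genes above background in all pools. Their median difference was -0.28 and their median size 0.99. By brightest probe set, the 4 farthest toward ovary were ZFAND2A, FAF2, NGLY1 and NFE2L2. ZFAND2A, which in mammals is induced by arsenite and binds the proteasome, had 14.58 and 14.78 in ovary, against 7.96 and 7.50 in testis, 124-fold (6.95, SE 0.22, limma adjusted p = 0.00196). FAF2, a cofactor of the unfolding ATPase VCP, had 11.55 and 11.78 in ovary, against 8.41 and 8.39 in testis (3.26, SE 0.1, adjusted p = 0.00191). NGLY1 is the glycanase that processes NFE2L1, the transcription factor that raises proteasome genes when the proteasome is inhibited. NGLY1 had 9.54 and 10.00 in ovary, against 7.64 and 8.04 in testis (1.92, SE 0.26, adjusted p = 0.0239). With the mean of its 3 probe sets, of which 2 were called, NGLY1 differed by 1.42. That is nearer to 0 than COPS7A (1.79), a partner described below. NFE2L2, the related factor of the oxidative stress response, had 11.28 and 11.31 in ovary, against 9.47 and 9.38 in testis (1.87, SE 0.047, adjusted p = 0.00147). The call of NGLY1 ended without ovary pool 2 (0.0615), without testis pool 1 (0.15) and without testis pool 2 (0.118).

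By brightest probe set, the 4 partners farthest toward testis were COPS7B, FBXO7, NPLOC4 and GPS1. COPS7B, a subunit of the COP9 signalosome, which is built like the lid, had 8.47 and 8.40 in ovary, against 11.90 and 11.76 in testis, 10.5-fold (-3.40, SE 0.068, limma adjusted p = 0.00113). Its paralog COPS7A differed the other way, with 11.22 and 11.37 in ovary and 9.64 and 9.37 in testis (1.79, SE 0.13, adjusted p = 0.00735). FBXO7, a ubiquitin ligase subunit that binds PSMF1, had 9.99 and 10.22 in ovary, against 12.81 and 13.05 in testis (-2.82, SE 0.14, adjusted p = 0.00399). PSMF1 itself was higher in ovary. NPLOC4, a VCP cofactor that feeds substrates to the proteasome, had 7.50 and 7.45 in ovary, against 10.16 and 10.10 in testis (-2.65, SE 0.038, adjusted p = 0.000763). GPS1, another signalosome subunit, had 10.34 and 10.36 in ovary, against 12.57 and 12.43 in testis (-2.15, SE 0.067, adjusted p = 0.00196). The call of FBXO7 ended without testis pool 2 (adjusted p = 0.052). That of GPS1 ended when probe sets named _x_at or _s_at were left out (-0.10, adjusted p = 0.645). FAF2, NGLY1 and COPS7A have only such probe sets and were not measured in that setting. With the mean of all probe sets NPLOC4, for which 2 of 5 probe sets were called, differed by -0.81 (adjusted p = 0.0434) and GPS1 by -1.26 (adjusted p = 0.00361). Both are then nearer to 0 than COPS3, another signalosome subunit (-1.90, adjusted p = 0.00101), and UFD1, the partner of NPLOC4 on VCP (-1.83, adjusted p = 0.00499), each read by 1 probe set. Without testis pool 1 or testis pool 2 the call of UFD1 ended (0.0713 and 0.0684), and that of COPS7A ended without testis pool 2 (0.0526).

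**Figure D4:**
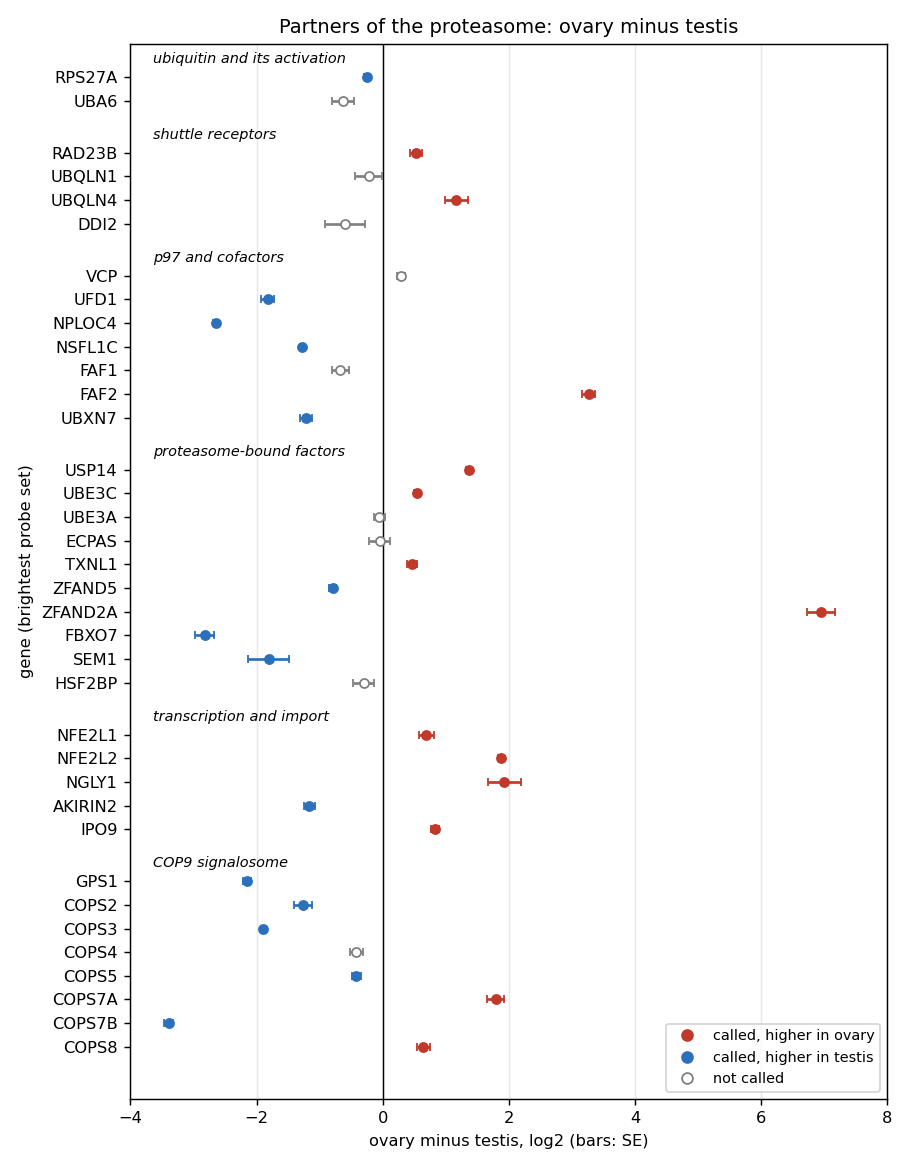
Difference in log2 value, ovary minus testis, of the 36 measured partner genes (brightest probe set; bars are the SE of the limma fit, 2 pools per organ), by class. ZFAND2A stands farthest toward ovary at 6.95 and COPS7B farthest toward testis at -3.40; filled points passed an adjusted p of 0.05.

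By class, testis was higher for 5 of 8 measured signalosome genes and ovary for 2, with a median difference of -0.84. Of 7 measured genes of VCP and its cofactors, 4 were higher in testis and 1 in ovary. VCP itself, with 12.53 and 12.62 in ovary and 12.35 and 12.22 in testis, did not pass (0.29, limma adjusted p = 0.0784). These classes are small, and calls were common among the genes above background in all pools (35.3% toward ovary and 28.6% toward testis). Of 5 genes of transcription and nuclear import, 4 were higher in ovary and 1 in testis. Proteasome-bound factors were split 4 to 3 with 3 that did not pass. Of 4 shuttle receptors, which carry ubiquitin-marked proteins to the proteasome, 2 were higher in ovary and 0 in testis. Of the 2 measured ubiquitin and activation genes, 1 was higher in testis. All these counts take the brightest probe set of each gene. NSFL1C, a VCP cofactor, was counted toward testis, and UBE3C and NFE2L1 toward ovary, but each also had 1 probe set called the other way. UBA6 (ubiquitin activation), ECPAS (proteasome-bound) and FAF1 (VCP cofactor) were counted as not passing. Of their probe sets, 2 of 4, 2 of 4 and 1 of 5 were called toward testis. For UBXN7, a VCP cofactor counted toward testis, 1 of 6 probe sets was called.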

How the data were processed

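RNA of 4 gonad pools was read on Affymetrix arrays. As deposited, the authors' table holds log2 values, 1 per probe set and array. The submitters' processing notes list GCRMA and MAS5 without role or version, and the series' design text says that the arrays were checked with affyPLM. Of 38535 probe sets, 153 controls were left out and 38382 tested two-sided with lmFit and eBayes of limma 3.58.1 under R 4.3.3 (2 residual and 0.741 prior degrees of freedom), with Benjamini-Hochberg adjustment over all of them and a threshold of 0.05. The code was tested on simulated data. The p-values measure the spread between pools, not between birds, and so few arrays limit the precision. An exact permutation test with 2 pools per organ has a smallest p of 0.333.

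The platform annotation gave 1 symbol for 27168 tested probe sets, several for 177 and none for 11037. Symbols were updated through gene numbers of assembly GRCg7b. The brightest probe set over all arrays stands for a gene. The background level is the 99th percentile of 689 probe sets for other sequences, and was set, like the background share among genes above it in all pools, after the data were examined. For a signal not above it in either pool of an organ, the fold is a lower bound, taken against that level. Members, roles, partners and marker lists were chosen with earlier results of these data known. Values per pool are given for 12 subunits of a list where measured, for the 2 called genes per role and direction and the 4 partners per direction with the largest differences, and for members whose probe sets were called in both directions. The other members are named to account for all 40. COPS7A, VCP, SEM1, COPS3 and UFD1 were added after their values were seen. Alternatives changed the filter, moderation, normalization, floor, block, pools and choice of probe set.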

Additional observations from a re-analysis of the deposited data

How the results depend on the processing

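With 2 pools per organ the counts move with single pools. Left out one at a time, pools gave 3734 to 6449 probe sets higher in ovary (7000 with all pools) and 4053 to 6007 higher in testis (6666). Toward ovary, the same fits gave 5 to 9 of 15 proteasome genes, 0 to 2 of 2 in the alpha ring, 1 of 3 in the beta ring, 0 or 1 of 1 in the base scaffold, 1 of 4 in the lid, 1 of 2 activators, 2 or 3 of 3 chaperones and 4 to 10 of 13 partners. Toward testis, they gave 7 to 9 of 13 proteasome genes, 0 to 2 of 2 in the alpha ring, 1 of 2 in the beta ring, 2 or 3 of 4 ATPases, 0 to 2 of 2 in the base scaffold, 2 or 3 of 3 chaperones and 5 to 10 of 14 partners.

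Pools with the same number hold different birds, so the birds do not pair them. Their deviations correlated at 0.0524 over all tested probe sets, a value that cannot tell whether part of the probe sets share a batch. A batch shared by such pools was not tested. With the pool number as a replicate block, 9 proteasome genes were called toward ovary, 1 in the alpha ring, 2 in the lid and 1 activator, while toward testis the alpha ring had 0 and the beta ring 1. Without probe sets named _x_at or _s_at, 9 proteasome genes, 1 in the lid and 0 activators were called toward ovary, and 1 in the alpha ring, 2 ATPases and 1 in the lid toward testis. Genes read only by such probe sets, PSMC2, PSMD12 and PSMF1 among them, were not measured in that setting. Quantile normalization left 1 alpha ring gene toward testis and gave 1 ATPase toward ovary. Robust moderation left 1 alpha ring gene toward testis and 1 activator toward ovary. A floor at the background level left 1 alpha ring gene toward testis and 2 lid genes, 1 activator and 8 partners toward ovary. The filter on dim probe sets, a variance trend and median centring each left 1 activator toward ovary. For probe sets above background in all pools, the floor and the filter left the differences unchanged, as for PSMA4 (-0.93), and changed only adjusted p. The mean of all probe sets gave 2 lid genes and 1 activator toward ovary and 2 activators toward testis.

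Directions turned for 6 genes. With the mean of all probe sets, the difference was -0.32 for PSMB5, -0.61 for PSME3, -0.20 for PSMD2 and -0.33 for PSMG3. Without probe sets named _x_at or _s_at it was -0.64 for PSMB5, -0.25 for PSMD7 and -0.11 for PSME3. PSME3 was then read by a probe set not above background in any pool (2.32 in both ovary pools, 2.53 and 2.32 in testis). The dimmer PSMG3 probe set, which enters its mean, was above background only in testis pool 2 (4.10). Median centring gave 0.047 for PSMD3. With single pools left out, differences ranged between -0.0072 and 0.0073 for PSMB5, -0.0053 and 0.14 for PSMD2, and -0.15 and 0.11 for PSMD3. Over the members and these settings, 408 results kept direction and side of the threshold, 88 lost the call, 4 gained one and 13 turned. The cause of these changes was not tested.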

Other observations

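Probe sets annotated to several genes were kept out of the members. Of 4 annotated jointly to PSMD4, a ubiquitin receptor of the base, and PIP5K1A, a lipid kinase, 2 were above background in all pools. The first had 10.21 and 9.64 in ovary, against 11.04 and 10.90 in testis (-1.04, limma adjusted p = 0.08), and the other 9.07 and 8.56 in ovary, against 9.69 and 9.80 in testis (-0.93, adjusted p = 0.0791). Neither passed, and no source used here says which of the 2 genes they read. A probe set annotated jointly to CCDC50 and the lid gene PSMD6 had 11.34 and 11.46 in ovary, against 10.27 and 10.86 in testis (0.84, adjusted p = 0.126), while the probe set of PSMD6 alone differed by 1.54.

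All 40 proteasome genes lie outside the sex chromosomes in assembly GRCg7b, with 0 on Z or W. Among the measured partners, VCP, RAD23B, UBQLN1, ECPAS, TXNL1 and ZFAND5 lie on Z. RAD23B and TXNL1 were called toward ovary and ZFAND5 toward testis, while VCP, UBQLN1 and ECPAS did not pass. The part of the Z chromosome in these differences was not tested.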
